A study of Mus musculus with 2 samples.

Results

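Folr2/Cd163-low macrophages are the macrophages of injured mouse carotid arteries that carried few or no transcripts of Folr2, the folate receptor beta gene, and Cd163, the haemoglobin scavenger receptor gene. Both genes mark macrophages that reside in the outer wall of arteries and in other connective tissue. Barcodes with 300 or more genes, 500 or more UMIs (unique molecular identifiers, counted transcripts) and at most 10% mitochondrial UMIs were kept. A kept barcode was a member when C1qa, C1qb and C1qc together had 10 or more UMIs, Csf1r had 1 or more, Cd3e, Cd79a and Pdgfra had 0, and Folr2 and Cd163 together had 1 or fewer. These limits were met by 461 of 13436 kept barcodes, out of 14429 listed. The remaining 603 barcodes of the same C1q gate, with 2 or more UMIs of Folr2 and Cd163, are called Folr2/Cd163-positive macrophages here and served as the comparison.

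Male C57BL/6J mice had a guide wire passed through the carotid artery to strip its endothelium, which leads the wall to thicken from the inside (intimal hyperplasia), and vessels were taken 28 days (4 weeks) or 14 days (2 weeks) later. The design gives 18 mice of 8 weeks of age per time, and the cells of each time form 1 library, in which no cell can be traced to a mouse. The labels name the carotid artery as the source, while their protocols also speak of aortic grafts and of both the left and the right artery. All samples were injured, and uninjured arteries were not analysed here. Since each time is 1 library, differences between the times have no replicates behind them and none was tested: "higher" and "lower" describe these 2 libraries, and every interval is a 95% interval of counting error only.

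Macrophages of an injured artery come from cells that were resident in the wall and from blood monocytes, which enter through the CCR2 receptor and lose the surface protein Ly6C as they mature. Recruited cells can take up lipid and debris and then express genes such as Trem2, Spp1 and Gpnmb, while inflammatory signals through NF-kB switch on cytokine, chemokine and acute phase genes. Whether a cell was recruited cannot be read from its transcripts alone, and the term recruited-type was used only as a working name for the members.

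Members made up 1.24% of kept barcodes at 4 weeks (99 of 8009, 1.01 to 1.5%) and 6.67% at 2 weeks (362 of 5427, 6.02 to 7.37%). All C1q-gated macrophages together made up 2.30% at 4 weeks (184 barcodes) and 16.2% at 2 weeks (880 barcodes), so both kinds were a smaller share of the later library. Members without a UMI of Rag1, Dntt, Ptcra, Flt3, Csf3r or Col3a1, genes mainly of other cell types, were 34 at 4 weeks and 26 at 2 weeks. They were 0.425% and 0.479% of all kept barcodes. This filter removed 65.7% of members at 4 weeks and 92.8% at 2 weeks. Csf3r is also known from monocytes, and Col3a1 was in 56.2 and 64.7% of Cd3e-positive cells without C1q, which do not make it. The filter can thus remove macrophages too, and the part of other cell types in the share difference was not tested. Of the C1q-gated macrophages, members were 53.8% at 4 weeks (46.3 to 61.2%) and 41.1% at 2 weeks (37.9 to 44.5%). The members held 1043630 UMIs at 4 weeks, with a median of 9888 per cell, and 5160858 UMIs at 2 weeks, with a median of 12861. Whole libraries held 83753250 and 78773018 UMIs over all listed barcodes at 4 and 2 weeks. The libraries shared 8 listed barcode sequences, none of them that of a member.

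The gate separates a continuous distribution at its low end. At 4 weeks 85 members had no UMI of either gene and 14 had 1, and at 2 weeks 263 had none and 99 had 1. At 4 weeks Mrc1, the mannose receptor gene, was at 744 CPM (UMIs of the gene in 1000000 UMIs of the summed cells) in the 14 members with 1 UMI and at 1392 CPM in the 8 cells with 2. At 2 weeks Mrc1 was at 739 CPM in the 99 members with 1 UMI and at 870 CPM in the 54 cells with 2. Cx3cr1 was at 215 CPM just inside and 27.8 CPM just outside the limit at 4 weeks, and at 110 and 43.8 CPM at 2 weeks. Arg1 was at 49.6 and 0 CPM at 4 weeks, and at 498 and 508 CPM at 2 weeks, and Saa3 at 24.8 and 13.9 CPM at 4 weeks, and at 7410 and 9999 CPM at 2 weeks. Mrc1 was thus lower and Cx3cr1 higher just inside the limit in both libraries, while Arg1 at 2 weeks was about the same on both sides of it and Saa3 was higher outside. The sum of C1q UMIs, also part of the gate, had a median of 78 per member in each library, against 144 and 174.5 per Folr2/Cd163-positive macrophage at 4 and 2 weeks.

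**Figure D1:**
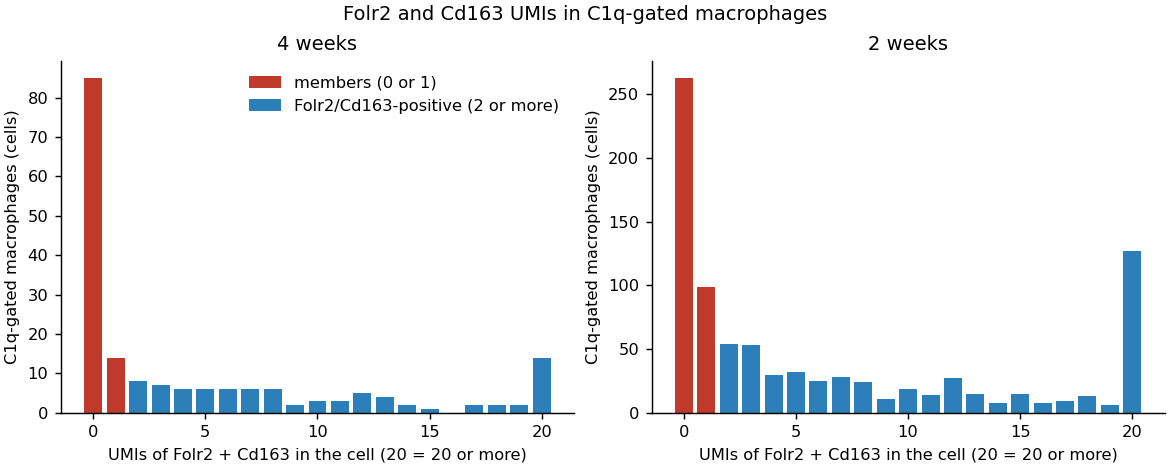
Number of C1q-gated macrophages (vertical axis) by their UMIs of Folr2 and Cd163 together (horizontal axis, 20 standing for 20 or more) at 4 weeks (left) and 2 weeks (right). Members, with 0 or 1 UMI, are the 85 and 14 cells of the red bars at 4 weeks and the 263 and 99 at 2 weeks, and no gap divides them from the blue bars of the Folr2/Cd163-positive macrophages.

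The members carried the genes of macrophages at levels mostly within 2-fold of those of the comparison cells. Lyz2, the lysozyme gene, was at 18582 CPM in members at 4 weeks and 18933 CPM at 2 weeks. Adgre1, which encodes the macrophage surface protein F4/80, was lower in members. It was at 294 CPM in members and 482 CPM in comparison cells at 4 weeks, and at 482 and 626 CPM at 2 weeks. Of 12 macrophage identity genes, 1 (Maf, a transcription factor gene) was lower than in Folr2/Cd163-positive macrophages by 2-fold or more in both libraries and none was higher by that much. Across all genes with 50 or more UMIs over the 4 sums, 2.56% were higher (249 of 9723) and 2.64% lower (257 of 9723) in members by this rule. Because the members were chosen by gene levels in these same cells, these counts describe the gate and support nothing about the cells beyond it. Maf was at 245 CPM in members against 761 CPM in the comparison cells at 4 weeks, and at 399 against 953 CPM at 2 weeks.

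By the same rule, of the 5 genes given as markers of these cells, Arg1 and Cx3cr1 were over 2-fold higher in members than in Folr2/Cd163-positive macrophages of both libraries, and Msr1, Trem2 and Ms4a6d were not. Arg1 encodes arginase 1, which breaks down arginine in alternatively activated and hypoxic macrophages. Its level was 65.2 CPM in members (50.6 to 82.6) and 0 CPM in comparison cells at 4 weeks, and 641 CPM (619 to 663) and 85.6 CPM at 2 weeks, where 1 comparison cell held 33.4% of the comparison UMIs. The log2 ratio was 4.19 at 4 weeks, with the 0 set to a floor of 3 counts and an interval that starts at 3.86. At 2 weeks it was 2.91. Cx3cr1, the fractalkine receptor gene of monocytes and many tissue macrophages, was at 307 CPM (274 to 342) in members and 68.8 CPM in comparison cells at 4 weeks, with 27.6% of the comparison UMIs in 1 cell, and at 215 CPM (203 to 228) and 30.5 CPM at 2 weeks. The log2 ratios were 2.16 at 4 weeks and 2.82 at 2 weeks.

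Trem2, a lipid-sensing receptor gene, was at 552 CPM in members and 279 CPM in comparison cells at 4 weeks, a log2 ratio of 0.99, and at 308 and 276 CPM at 2 weeks (0.16). Msr1, the scavenger receptor A gene, was at 95.8 against 75.9 CPM at 4 weeks and at 143 against 97.4 CPM at 2 weeks. Ms4a6d, a membrane protein gene of monocytes and macrophages, was at 256 against 204 CPM at 4 weeks and at 371 against 296 CPM at 2 weeks. The members and the comparison cells were thus close in Msr1 and Ms4a6d in each library. All 5 genes are protein-coding genes of the mm10 annotation; Arg1 (ENSMUSG00000019987) lies on chromosome 10 from 24915221 to 24927484 and Cx3cr1 (ENSMUSG00000052336) on chromosome 9 from 119901616 to 120069879, both on the minus strand.

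Detection per cell gave the same order. With each cell thinned to 3500 UMIs, which left 85 of 99 members at 4 weeks and 341 of 362 at 2 weeks, Cx3cr1 was found in 52.9% of members and 12% of comparison cells at 4 weeks, and in 33.7% and 5.69% at 2 weeks. Arg1 was found in 7.06% of members and in 0 of 83 comparison cells at 4 weeks (a count of 0 allows up to 3.61%), and in 16.1% and 2.94% at 2 weeks. Ms4a6d was in 45.9% of members and 42.2% of comparison cells at 4 weeks, but in 51.3% and 56.9% at 2 weeks, the other way. Trem2 was in 61.2% and 54.2% at 4 weeks and in 47.8% and 47.5% at 2 weeks. Msr1 was in 21.2% and 20.5% at 4 weeks and in 30.5% and 25.5% at 2 weeks. Before thinning, Arg1 was in 9.09% of members at 4 weeks and 21.5% at 2 weeks, and Cx3cr1 in 59.6 and 46.7%. In thymocytes, which should lack both genes, the thinned shares were 0.292% for Arg1 and 0.292% for Cx3cr1 at 4 weeks, and 1.23 and 0.409% at 2 weeks. The shares in members stood above this level of stray transcripts.

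**Figure D2:**
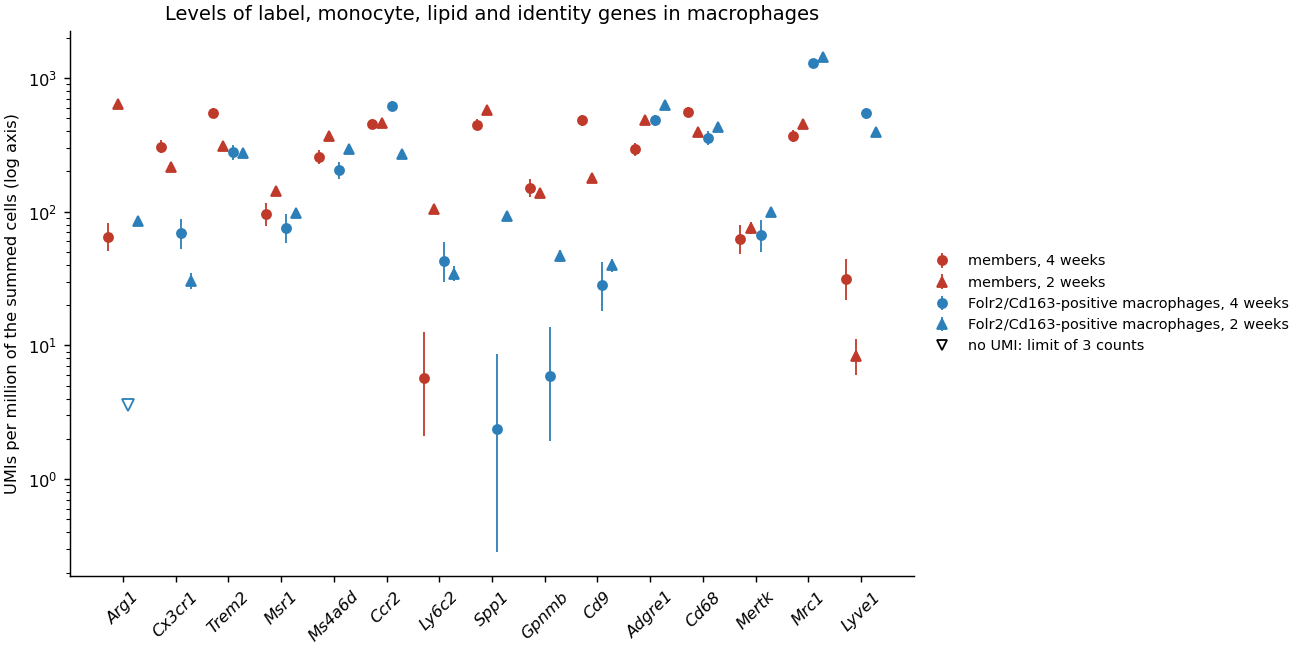
Level of 15 genes (vertical axis, CPM of the summed cells, log axis) in members (red) and Folr2/Cd163-positive macrophages (blue) at 4 weeks (circles) and 2 weeks (triangles), with 95% counting intervals and an open triangle for the limit that a count of 0 allows. Cx3cr1 is higher in members at 307 and 215 CPM, against 68.8 and 30.5 CPM, while the values of Msr1, Ms4a6d and Mertk lie close together.

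Monocyte genes did not move as a block. Of 12, 6 were higher in members than in the comparison cells by 2-fold or more in both libraries and 1 was lower. Fn1, the fibronectin gene, was at 1406 CPM in members and 235 CPM in comparison cells at 4 weeks, with 56.6% of the comparison UMIs in 1 cell, and at 800 and 141 CPM at 2 weeks. F10, the coagulation factor X gene, was at 102 and 1.19 CPM at 4 weeks and at 121 and 13.9 CPM at 2 weeks. Vcan, the versican gene, was at 37.4 and 1.19 CPM at 4 weeks, where 1 member held 25.6% of the UMIs, and at 51.3 and 8.06 CPM at 2 weeks.

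The genes most closely tied to fresh entry from blood gave no single direction. Ccr2, the chemokine receptor through which monocytes enter tissue, was at 453 CPM in members and 621 CPM in comparison cells at 4 weeks, and at 458 and 272 CPM at 2 weeks. Ly6c2, a surface protein gene of young monocytes, was at 5.75 CPM (2.11 to 12.5) and 42.7 CPM at 4 weeks, and at 105 CPM (96.0 to 114) and 34.4 CPM at 2 weeks. A single comparison cell held 32 of the 36 Ly6c2 UMIs of its set at 4 weeks (88.9%), so the lower value in members there rests on that cell. Ccr2 was lower in members at 4 weeks, and both genes were higher in members at 2 weeks.

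Genes of resident macrophages, the kind that Folr2 and Cd163 mark, were lower in members. Of 13 with enough UMIs, 11 were lower by 2-fold or more in both libraries and none was higher. Lyve1, the hyaluronan receptor gene of vessel-associated macrophages, was at 31.6 CPM in members, 81.8% of it in 1 cell, and 545 CPM in comparison cells at 4 weeks, and at 8.33 and 398 CPM at 2 weeks. Mrc1 was at 368 and 1286 CPM at 4 weeks and at 456 and 1432 CPM at 2 weeks, and it was found in 69.7% of members at 4 weeks and 78.7% at 2 weeks. Ccl8, a chemokine gene of resident macrophages, was at 101 and 1331 CPM at 4 weeks, with 44.8% of the member UMIs in 1 cell, and at 384 and 2932 CPM at 2 weeks. Cbr2, a carbonyl reductase gene, had log2 ratios of -4.41 at 4 weeks, where 1 member held 21.6% of its UMIs, and -3.41 at 2 weeks.

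Among genes outside that list, Ednrb, the endothelin receptor B gene, ranked lowest by the ratio nearer to 0 of the 2 libraries, among genes within the naming limits. It was at 12.5 CPM in members and 236 CPM in comparison cells at 4 weeks, and at 44.2 and 385 CPM at 2 weeks, with 46.2% of the UMIs of members at 4 weeks in 1 cell. Ltc4s (leukotriene C4 synthase) and Clec10a (a galactose lectin), both genes of the resident list above, were also lower in members of both libraries. So were Fcgrt (the neonatal Fc receptor), Ccl7 (a monocyte chemokine), Plekhg5, Tmod1, Sult1a1, Selenbp1, Fxyd2 and Etv1, which are outside it. The log2 ratios of all these genes lay between -5.83 and -2.20. Single members held 33.3% of the Plekhg5, 25% of the Sult1a1 and 33.3% of the Etv1 UMIs at 4 weeks, and the only Tmod1 UMI there.

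Genes of lipid-associated macrophages were higher in members for 7 of 17 and lower for none. Spp1, the osteopontin gene, was at 448 CPM in members and 2.37 CPM in comparison cells at 4 weeks, with 26.3% of the member UMIs in 1 cell, and at 573 and 92.3 CPM at 2 weeks. Lpl, the lipoprotein lipase gene, was at 964 and 144 CPM at 4 weeks and at 412 and 130 CPM at 2 weeks. Cd9, a tetraspanin gene, was at 482 and 28.5 CPM at 4 weeks and at 179 and 39.8 CPM at 2 weeks. Gpnmb, a lysosomal glycoprotein gene, had log2 ratios of 4.66 at 4 weeks, where 1 member held 22.3% of its UMIs, and 1.56 at 2 weeks. Fabp5, a fatty acid carrier gene, had ratios of 4.46, with 20.3% of the UMIs at 4 weeks in 1 member, and 1.41. Lgals3, the galectin 3 gene, stood at 2.18 and 1.24. Apoe, the apolipoprotein E gene, ran the other way at -0.48 and -1.16.

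Matrix-degrading enzymes and an integrin stood out among the genes higher in members. Mmp12, the macrophage elastase gene (ENSMUSG00000049723, chromosome 9 from 7344381 to 7369499, plus strand), was at 375 CPM (338 to 414) in members and 0 CPM in comparison cells at 4 weeks, and at 135 CPM (126 to 146) and 2.19 CPM at 2 weeks, with 43.8% of the 16 comparison UMIs in 1 cell. Its log2 ratio was 6.72 at 4 weeks, with the 0 set to 3 counts and an interval that starts at 6.41. At 2 weeks it was 5.95. Itgax, the integrin alpha X (CD11c) gene, was at 124 and 2.37 CPM at 4 weeks and at 51.5 and 3.01 CPM at 2 weeks. Mmp13, a collagenase gene, was at 51.7 and 0 CPM at 4 weeks and at 18.4 and 0.41 CPM at 2 weeks, with 46.3 and 49.5% of the member UMIs in 1 cell of each library. Mmp14, the gene of a membrane-bound protease, was at 155 and 28.5 CPM at 4 weeks and at 333 and 149 CPM at 2 weeks. In all 7 of 18 genes of proteases and their inhibitors were higher and none was lower.

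Most genes of hypoxia and glycolysis and some of inflammation were also higher in members than in comparison cells. Il1b, the interleukin 1 beta gene, was at 394 CPM in members, 21.7% of it in 1 cell, and 9.49 CPM in comparison cells (8 UMIs, 5 of them in 1 cell) at 4 weeks, and at 1335 and 130 CPM at 2 weeks. Ptgs2, the cyclooxygenase 2 gene, had log2 ratios of 4.15 at 4 weeks, with 45.5% of the member UMIs in 1 cell, and 2.93 at 2 weeks. Of 18 inflammatory genes, 5 were higher in both libraries and 1, Il10, was lower. Of 12 genes of hypoxia and glycolysis, 8 were higher and none lower. Gapdh, a glycolytic enzyme gene, was at 1439 and 585 CPM at 4 weeks and at 1860 and 793 CPM at 2 weeks, and Vegfa, the vascular growth factor gene, was at 47.0 and 4.75 CPM at 4 weeks, with 34.7% of the member UMIs in 1 cell, and at 115 and 16.9 CPM at 2 weeks. Pdgfb, a growth factor gene for smooth muscle cells, was at 59.4 and 15.4 CPM at 4 weeks and at 31.4 and 8.47 CPM at 2 weeks.

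The other genes with the highest ratios were Mcemp1, Napsa (an aspartic protease), Sdc1 (syndecan 1), Ass1 (argininosuccinate synthase) and AA467197, with log2 ratios from 2.80 to 5.34. For AA467197 comparison cells had no UMI at 4 weeks. Its value there, 5.18, comes from a 0 set to 3 counts, with an interval that starts at 4.87. At 2 weeks 1 comparison cell held 50.8% of the comparison UMIs. Single members held 32.4% of the Mcemp1 and 27.0% of the Sdc1 UMIs at 4 weeks. Bhlhe40, a transcription factor gene, was at 69.9 and 7.12 CPM at 4 weeks and at 96.3 and 14.4 CPM at 2 weeks. Tmem119, Olfml3 and Tgfbr1, genes known from microglia of the brain, were higher in members with ratios of 3.04, 3.78 and 2.53 at 4 weeks and 2.33, 2.48 and 1.47 at 2 weeks. P2ry12 and Gpr34, from the same list, were lower at -1.65 and -1.34 at 4 weeks and -1.53 and -1.10 at 2 weeks.

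The members were not of 1 kind. The 5 marker genes were rarely found together: at 3500 UMIs a cell, 2 of 85 members at 4 weeks and 2 of 341 at 2 weeks had all 5, and 14 and 45 had none. At 2 weeks 55 thinned members had an Arg1 UMI and 286 did not. Cx3cr1 was found in 14.5% of the Arg1-positive and 37.4% of the Arg1-negative cells, and Ccr2 in 18.2% and 55.6%. Msr1 ran the other way at 60.0% and 24.8%, as did Trem2 at 67.3% and 44.1% and Ms4a6d at 78.2% and 46.2%. The pair of markers that separated members from comparison cells thus lay mostly in different members, while Msr1, Trem2 and Ms4a6d went with Arg1. At 4 weeks only 6 thinned members had Arg1, too few to compare.

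Clustering of the 461 members gave 6 groups, described here by their leading genes, which are not results because the clusters were built from them. Cluster 1 (14 cells at 4 weeks, 100 at 2 weeks) was led by Ccl8, Ednrb, Gas6, Pdgfc and Wwp1 and had 1016 CPM of Mrc1, the highest of the 6 clusters. Cluster 2 (15 and 77 cells) was led by Plac8, Ms4a4c, Slfn1, Isg15 and Pydc4, with 932 CPM of Ccr2 and 232 CPM of Ly6c2. Slfn1, Isg15, Pydc4, Rsad2, Oas3 and Oasl1, among the 10 leading genes of cluster 2, are known as interferon-induced genes. Monocyte genes were not confined to it: Ly6c2 was found in 35.9% of cluster 2 cells and 46.6% of cluster 5 cells, and Ccr2 was at 676 CPM in cluster 3 and 644 CPM in cluster 6.

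Cluster 3 (23 and 53 cells) was led by Retnla, Chga, Pth, Racgap1 and Cd2, with 1316 CPM of Spp1 and 170 CPM of the proliferation gene Mki67. Its Mki67 was at 6.39 CPM (2 UMIs) at 4 weeks and 223 CPM at 2 weeks. The single cells with 2389 of the 3018 Pth and 1004 of the 1159 Chga UMIs of members at 2 weeks lay in cluster 3. This cluster held 9 of the 20 members with the highest doublet scores. Cluster 4 (43 and 32 cells) was led by Nes, Asb2, Ch25h, Slc40a1 and Cdk18 and had 784 CPM of Trem2, 568 CPM of Cx3cr1 and 469 CPM of Mmp12. It was the largest cluster at 4 weeks, at 43.4% of members (33.5 to 53.8%), against 8.84% at 2 weeks (6.13 to 12.3%). Since the clusters were built from the gene levels of both libraries, this difference in size describes the clustering and was not tested.

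Cluster 5 (2 and 56 cells) was led by Ptges, Csf3, Lcn2, Wfdc21 and Slpi. It carried 2309 CPM of Arg1, 25825 CPM of the acute phase gene Saa3, 3786 CPM of Il1b and 3935 CPM of Gapdh, the highest values among the clusters, and 1092 CPM of the antigen presentation gene H2-Aa, the lowest. Cluster 6 (2 and 44 cells) was led by Bank1, St3gal6, Ccl4, Satb1 and Sult1a1, with 627 CPM of Cx3cr1. Over both libraries the highest Arg1 was thus in cluster 5 and the highest Cx3cr1 in clusters 4 and 6. At 4 weeks, where cluster 5 had 2 cells, cluster 3 held 64 of the 68 Arg1 UMIs and cluster 5 held 1.

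**Figure D3:**
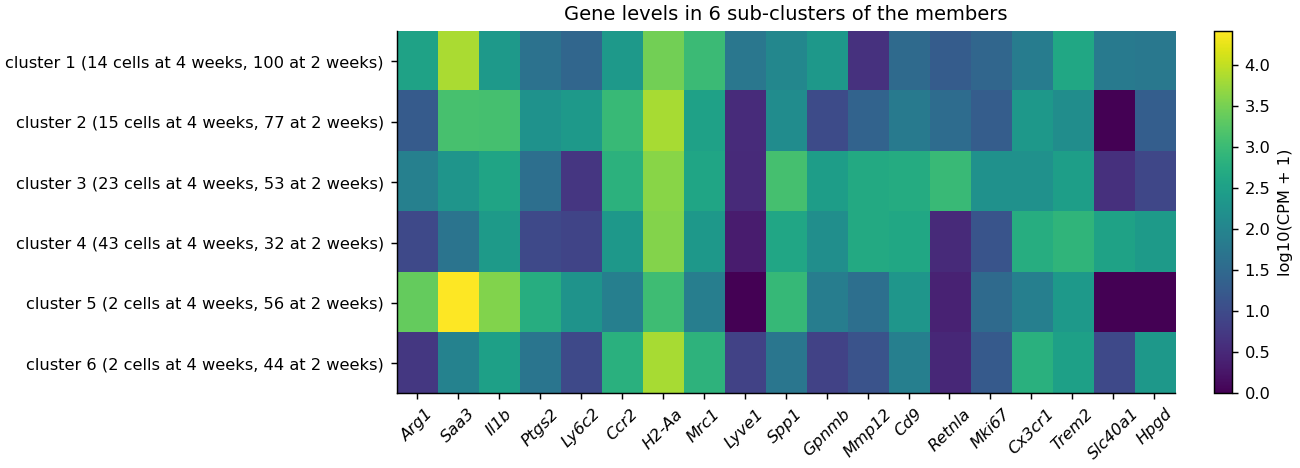
Level of 19 genes (columns) in the 6 sub-clusters of members (rows), as log10 of CPM plus 1 over the summed cells of both libraries. Cluster 5, with 2 cells at 4 weeks and 56 at 2 weeks, has the highest Arg1 (2309 CPM), Saa3 and Il1b, and cluster 4 has the highest Trem2 (784 CPM) and Slc40a1 (352 CPM).

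Between the times, members had fewer inflammatory transcripts at 4 weeks than at 2 weeks and more of Slc40a1, Hpgd, Mmp12, Cd9 and Lpl. With 50 or more UMIs over both libraries, 7969 genes were compared, of which 131 (1.64%) were 2-fold or more higher at 4 weeks and 425 (5.33%) lower. In Folr2/Cd163-positive macrophages 135 of 8677 genes (1.56%) were higher and 575 (6.63%) lower. The median log2 ratio over all genes was -0.01 in members and -0.05 in Folr2/Cd163-positive macrophages, so neither set was shifted as a whole.

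Slc40a1, which encodes ferroportin, the only known exporter of iron from cells, had the highest ratio. It was at 274 CPM at 4 weeks (243 to 308) and 18.2 CPM at 2 weeks (14.7 to 22.3), a log2 ratio of 3.91 (3.57 to 4.26). It was found in 23.2% of members at 4 weeks and 6.08% at 2 weeks, and the 5 strongest members held 58.7 and 66.0% of its UMIs. In Folr2/Cd163-positive macrophages it was lower, at 1.19 CPM at 4 weeks (1 UMI) and 33.1 CPM at 2 weeks. Slc40a1 (ENSMUSG00000025993) lies on chromosome 1 from 45908068 to 45926523, on the minus strand. Hmox1, the heme oxygenase gene that frees iron from heme, was at 774 and 402 CPM in members, a ratio of 0.95, with 23.5% of the UMIs at 4 weeks in 1 cell. In comparison cells Hmox1 was at 233 and 510 CPM. Of 8 iron handling genes in members, 1 (Slc40a1) was higher and 1 (Spic) lower by 2-fold or more.

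Cluster 4 held 266 of the 286 Slc40a1 UMIs of members at 4 weeks and 31 of 94 at 2 weeks, where cluster 1 held 55. Within cluster 4 the levels were 633 CPM at 4 weeks and 73.4 CPM at 2 weeks, a ratio of 3.11 (2.57 to 3.70). It was thus higher at 4 weeks within this cluster as well. Ferroportin is also known from thymic and splenic macrophages, and both libraries held thymocytes. Of 10 genes known from thymic macrophages, the sum was 1806 CPM in members at 4 weeks and 935 CPM at 2 weeks, Slc40a1, Cx3cr1 and Hmox1 included. Timd4, which defines many of those cells, was at 0 of 1043630 UMIs at 4 weeks (up to 2.87 CPM) and at 0.194 CPM at 2 weeks. Vcam1 was at 31.6 and 36.6 CPM, with 54.5 and 20.1% of its UMIs in 1 cell of each library, and Spic at 7.67 and 17.6 CPM. Of the 9 genes of the thymic macrophage list with enough UMIs in members, 2 were higher at 4 weeks by 2-fold or more. Of the same 9 genes, 1 was lower, and the median log2 ratio was 0.51. Over both libraries the sum of the list was highest in cluster 4, at 2376 CPM. The part of cells from thymus in the Slc40a1 difference was not tested.

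The summed levels of the enzyme genes Hpgd, Cat and Akr1b8 were higher at 4 weeks too. Hpgd, whose enzyme inactivates prostaglandins, was at 169 CPM at 4 weeks (145 to 195) and 47.3 CPM at 2 weeks (41.5 to 53.6), a log2 ratio of 1.83. Cat, the catalase gene, was at 209 and 69.8 CPM, a ratio of 1.58. Akr1b8, an aldo-keto reductase gene, was at 62.3 and 18.8 CPM, a ratio of 1.73, with 21.5% of the UMIs at 4 weeks in 1 cell. At 4 and 2 weeks Hpgd was found in 36.4 and 21.8% of members, Akr1b8 in 19.2 and 9.94%, and Cat in 51.5 and 51.7%. The 5 strongest cells held 51.8% of the Cat and 66.2% of the Akr1b8 UMIs at 4 weeks. Under other settings the ratio was as low as 0.0066 for Cat and 0.050 for Akr1b8, against 1.72 for Hpgd. Akr1b8 had a ratio of -1.25 in cluster 3 and 4.87 in cluster 4 (2.95 to 7.95), where its level at 2 weeks was only 4.73 CPM. Pparg, a lipid-sensing transcription factor gene, was at 29.7 and 7.75 CPM, a ratio of 1.94, and Igf1, a growth factor gene, was at 360 and 162 CPM, a ratio of 1.16.

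Mmp12 was at 375 and 135 CPM at 4 and 2 weeks, a log2 ratio of 1.47 (1.29 to 1.65), and was found in 27.3 and 12.2% of members. The 5 strongest members held 62.4 and 57.7% of its UMIs. Within the clusters with 20 or more members in each library its ratio was -0.22 in cluster 3 (-0.51 to 0.06) and 0.92 in cluster 4 (0.62 to 1.23), both short of 2-fold. Cd9 was at 482 and 179 CPM, a ratio of 1.43, and after thinning in 51.8 and 26.4% of members. Lpl was at 964 and 412 CPM, a ratio of 1.23. Cd63, a lysosomal tetraspanin gene, was at 955 and 472 CPM (1.02), and Abca1, a cholesterol exporter gene, was lower at 189 and 428 CPM (-1.18). The lipid-associated list had 4 of 17 genes higher and 1 lower, with a median of 0.13, so the list as a whole was near the median of all genes. Spp1 at -0.35 and Gpnmb at 0.13 did not pass 2-fold over all members, but both did within clusters, in opposite directions. Spp1 had a ratio of -1.32 in cluster 3 and 1.67 in cluster 4, and Gpnmb -1.65 in cluster 3 and 2.83 in cluster 4. These ratios rest on a part of the cells. Spp1 was found in 36.8 and 40% of the cells of clusters 3 and 4, and Gpnmb in 27.6 and 16%, with 16 Gpnmb UMIs in cluster 4 at 2 weeks.

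Several of the higher genes came from few cells. Retnla, a gene of alternatively activated macrophages, was at 714 and 110 CPM, a ratio of 2.69, with 34.6 and 26.5% of the UMIs in 1 cell of each library. In Folr2/Cd163-positive macrophages it was at 3330 and 333 CPM. Ccl24, an eosinophil chemokine gene, was at 86.2 and 21.3 CPM, and Ear2, a ribonuclease gene, at 81.4 and 27.9 CPM, with 64.4 and 60.0% of the UMIs at 4 weeks in 1 cell. At 2 weeks the strongest cell held 28.2% of the Ccl24 and 32.6% of the Ear2 UMIs. Without the cell with most UMIs in each library, the ratio of Ccl24 was 1.03 in place of 2.02 and that of Ear2 was 0.82 in place of 1.55. Since 1 cell is a larger part of the 99 members at 4 weeks than of the 362 at 2 weeks, this step by itself tends to lower ratios, here and below. Cadm1, an adhesion molecule gene, had a ratio of 1.49 with 20.0% of the UMIs at 4 weeks in 1 cell, Mmp13 had 1.49, and Ccnd1, the cyclin D1 gene, had 1.29 (117 and 47.7 CPM).

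Among the lower genes, Saa3 had the highest level at 2 weeks. Saa3 encodes serum amyloid A3, an acute phase protein that macrophages make under inflammatory signals. It was at 893 CPM at 4 weeks (837 to 952) and 8006 CPM at 2 weeks (7929 to 8084), a log2 ratio of -3.16, and 1 cell held 75.9% of the UMIs at 4 weeks. Without the strongest cell of each library the ratio was -4.99. After thinning it was found in 4.71% of members at 4 weeks and 41.9% at 2 weeks. Fibroblasts had Saa3 in 3.11 and 24.2% of thinned cells, and thymocytes, which should lack it, in 0 (of 343 cells, up to 0.875%) and 21.6%. B cells, which should lack it too, had it in 1.21% at 4 weeks and 33.3% at 2 weeks (20.8 to 47.9%). The 2-week share in members stood above that of fibroblasts and thymocytes but within the interval of the 51 B cells, while the 4-week share was within its counting interval (1.30 to 11.6%) of that in fibroblasts.

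Arg1 was at 65.2 CPM at 4 weeks and 641 CPM at 2 weeks, a log2 ratio of -3.30 (-3.67 to -2.95). A single cell held 48.5% of the UMIs at 4 weeks, and without the strongest cell of each library the ratio was -4.09. Most of the 2-week UMIs, 2819 of 3308, were in cluster 5, which had 2 cells at 4 weeks and 56 at 2 weeks. Within cluster 3 Arg1 ran the other way, at 204 CPM at 4 weeks and 41.7 CPM at 2 weeks, a ratio of 2.29 (1.70 to 2.90). That reversal rests on few cells. Cluster 3 held 64 of the 68 Arg1 UMIs of members at 4 weeks, so the cell with 33 of them lay in it. The 5 strongest members held 91.2% of the 68. Ly6c2 was at 5.75 and 105 CPM (-4.19), and after thinning in 0 of 85 members at 4 weeks (up to 3.53%), and 11.7% at 2 weeks. The only Ly6c2 UMIs at 4 weeks were in 3 cells, 1 with 66.7% of them. Cx3cr1 was at 307 and 215 CPM (0.51) and Trem2 at 552 and 308 CPM (0.84), short of 2-fold. Msr1 at -0.58 and Ms4a6d at -0.53 were below 0 and also short of it. The 5 marker genes thus differed in direction between the times.

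The other lowest genes encode enzymes, receptors and secreted proteins. Ptges, the prostaglandin E synthase gene, was at 3.83 and 79.4 CPM (-4.37), and Ptgs2 was at 21.1 and 194 CPM (-3.20). Thbs1, the thrombospondin 1 gene, was at 28.7 and 381 CPM (-3.73), and Il10, the gene of an anti-inflammatory cytokine, at 8.62 and 105 CPM (-3.61). Fpr1, a chemoattractant receptor gene, was at 8.62 and 71.7 CPM (-3.06), Rsad2, an interferon-induced gene, at 7.67 and 52.5 CPM (-2.78), and Mmp9, a gelatinase gene, at 15.3 and 101 CPM (-2.71). The 4-week values of these 7 genes rest on few UMIs, of which single cells held 25% for Ptges, 45.5% for Ptgs2, 56.7% for Thbs1, 33.3% for Il10, 44.4% for Fpr1, 62.5% for Rsad2 and 50% for Mmp9. At 2 weeks 1 cell held 21% of the Rsad2 UMIs.

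Pth, the parathyroid hormone gene, and Chga, the chromogranin A gene, were also among the lowest, at 29.7 and 585 CPM and at 6.71 and 225 CPM. At 2 weeks 1 member held 79.2% of the Pth and 86.6% of the Chga UMIs, and without the strongest cells the ratios were -2.11 in place of -4.30 and -2.37 in place of -5.07. Pth was found in 26.3 and 80.9% of members. In Folr2/Cd163-positive macrophages it was found in 28.2 and 82.4% of cells, with at most 3 and 10 UMIs in a cell. Barcodes gated as B cells, which do not make it, had 1114 CPM over both libraries. How those UMIs were spread over the B cell barcodes was not examined. Pth was thus found in barcodes of cells not known to make it, and more widely at 2 weeks.

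**Figure D4:**
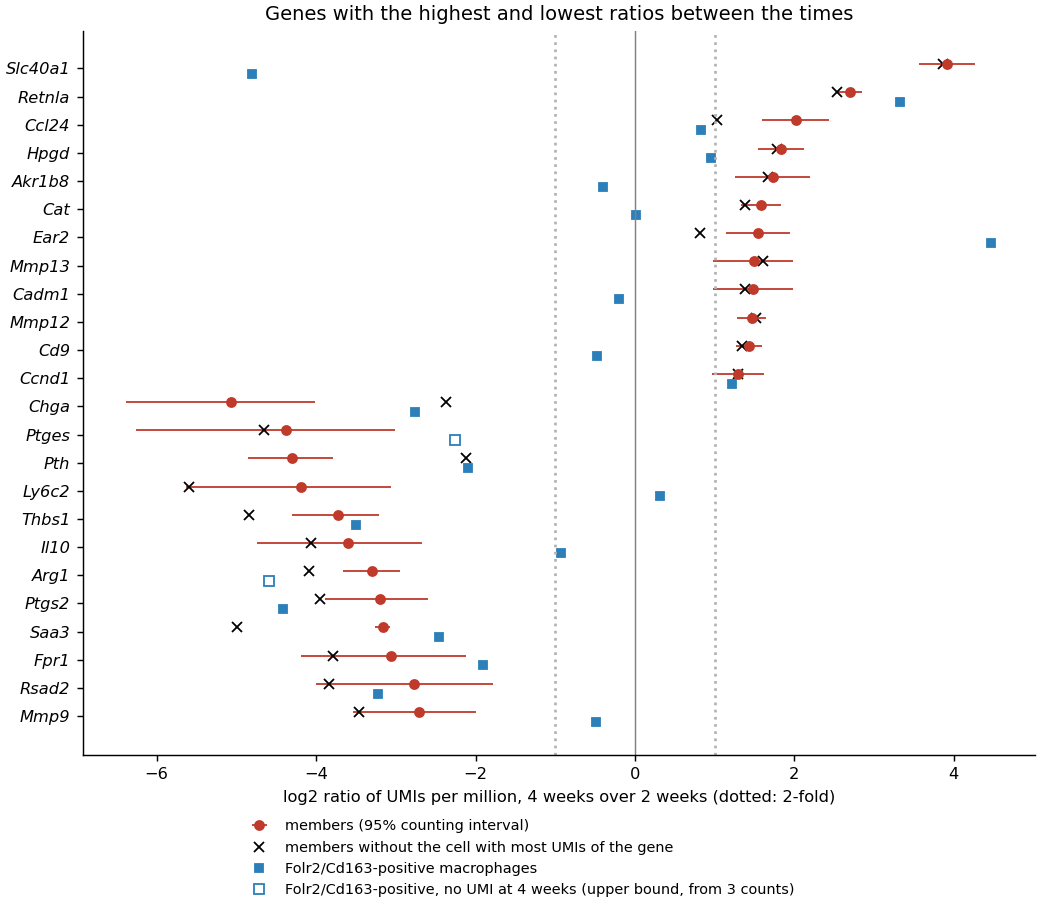
Ratio of CPM between 4 and 2 weeks (horizontal axis, log2) for the 12 highest and 12 lowest genes within the naming limits, in members (red, with 95% counting intervals), in members without the cell with most UMIs of the gene in each library (crosses), and in Folr2/Cd163-positive macrophages (blue squares, an open square for an upper bound, no square where a count of 0 gives none). Slc40a1 lies at 3.91 in members and -4.80 in Folr2/Cd163-positive macrophages, and the crosses of Chga and Pth lie nearer to 0 than the red points.

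Inflammatory cytokine and enzyme genes were lower at 4 weeks for 16 of 18, with none higher, where 5.33% of all genes were lower. Their median log2 ratio was -1.89, against -0.01 for all genes. Cxcl2, a chemokine gene for neutrophils, was at 2368 CPM at 4 weeks and 7109 CPM at 2 weeks (-1.59), and Cxcl1 was at 128 and 618 CPM (-2.27), with 42.5% of the UMIs at 4 weeks in 1 cell. Cxcl3 was at 38.3 and 194 CPM (-2.34), with 47.5% in 1 cell. Tnfaip3, the gene of the NF-kB inhibitor A20, was at 89.1 and 409 CPM (-2.20), and Il1rn, the interleukin 1 receptor antagonist gene, at 50.8 and 231 CPM (-2.19). Both activating and restraining genes of inflammation were thus among those lower. Il1b was at 394 and 1335 CPM (-1.76) and Nlrp3, an inflammasome gene, at 49.8 and 189 CPM (-1.92). Ccl3 (-0.60) and Ccl4 (-0.95) did not pass 2-fold.

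In Folr2/Cd163-positive macrophages 14 of 17 genes of this list were lower, with a median of -1.81, so the difference was of like size in both sets. It was also seen within the clusters with 20 or more members in each library, where clustering had already separated other differences. In cluster 3 the median was -1.60, with 10 of 14 lower, where 273 of all 3538 genes were lower, and in cluster 4 it was -1.13, with 5 of 10 lower, where 88 of all 2457 genes were. Immediate early genes, which respond to tissue handling as well as to signals, were lower for 4 of 12, with a median of -0.82 in members and -0.75 in Folr2/Cd163-positive macrophages. The part of handling in these differences was not tested.

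The promoters of 3 of the lower genes are shown with the short motifs a search found in them, in capitals. Sequences are from RefSeq (GRCm38.p6), 250 bases before to 50 after the start of the gene, read along its strand. The motifs searched on both strands were GGGNNTTNCC for NF-kB, TGANTCA for AP-1 and TTGCNNAA for C/EBP, and the matches found did not overlap. Saa3 was a named gene, and Cxcl2 and Cxcl3 were chosen after their values were seen.
Saa3, chr7:46715627-46715926, minus strand, C/EBP match: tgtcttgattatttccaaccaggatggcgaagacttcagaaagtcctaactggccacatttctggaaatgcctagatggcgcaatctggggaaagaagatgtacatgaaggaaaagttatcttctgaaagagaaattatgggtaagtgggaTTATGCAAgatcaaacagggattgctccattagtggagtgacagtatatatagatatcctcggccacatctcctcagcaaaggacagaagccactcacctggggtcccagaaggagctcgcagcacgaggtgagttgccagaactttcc
Cxcl2, chr5:90903649-90903948, plus strand, NF-kB matches: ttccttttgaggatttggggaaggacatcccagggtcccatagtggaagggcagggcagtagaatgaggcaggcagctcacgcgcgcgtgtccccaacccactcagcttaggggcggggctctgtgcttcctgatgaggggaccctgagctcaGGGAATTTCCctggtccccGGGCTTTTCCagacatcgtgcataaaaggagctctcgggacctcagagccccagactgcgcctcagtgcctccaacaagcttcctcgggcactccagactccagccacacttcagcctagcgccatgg
Cxcl3, chr5:90785851-90786150, plus strand, NF-kB match: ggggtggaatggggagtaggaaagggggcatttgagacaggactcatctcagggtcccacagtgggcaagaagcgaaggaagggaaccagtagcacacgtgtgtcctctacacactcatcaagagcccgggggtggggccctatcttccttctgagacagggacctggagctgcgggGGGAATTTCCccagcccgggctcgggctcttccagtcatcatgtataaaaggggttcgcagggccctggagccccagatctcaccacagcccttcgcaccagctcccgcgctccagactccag
The Saa3 match lies on the other strand and starts 99 bases before the start of the gene. The matches in Cxcl2 start 97 and 78 bases before the start of the gene and that in Cxcl3 starts 73 bases before it, and Cxcl2 and Cxcl3 share the letters GGGAATTTCC.

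Of the 18 inflammatory genes, 14 had a promoter in the table. The NF-kB motif was in 7 of these 14 (Cxcl1, Cxcl2, Cxcl3, Il1rn, Il6, Nlrp3 and Tnfaip3), against 5.48% of 27025 genes and 4.79% of 32851 promoters of the same length. The AP-1 motif was in 4 of 14, against 8.97% of genes, and the C/EBP motif in 3 of 14, against 12.2%. A match describes letters in the window and is no evidence of binding.

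Interferon response genes were lower at 4 weeks for 8 of 13 in members (median -1.15, and 1.19 without cells that carried UMIs of the genes of other cell types) and for 9 of 14 in Folr2/Cd163-positive macrophages (median -1.36). Irf7, the gene of an interferon-induced regulator, was at 40.2 and 101 CPM (-1.33) in members, with 40.5% of the UMIs at 4 weeks in 1 cell, and Cxcl10 at 51.7 and 121 CPM (-1.22). Proliferation genes were lower for 8 of 9 (median -2.27, and 0.74 without cells that carried 2 or more UMIs of the list), with Mki67 at 4.79 and 63.2 CPM, 40.0% of it in 1 cell at 4 weeks. The 0.74 says nothing about proliferation, since that filter used the same list and left at most 1 UMI of it per cell. After thinning Mki67 was found in 2.35 and 8.21% of members. Of 12 genes of hypoxia and glycolysis 3 were lower (median -0.57), among them Hif1a at 142 and 392 CPM (-1.47) and Vegfa (-1.29). Among growth factor genes for the wall, Hbegf was at 2.87 and 18.6 CPM (-2.69) and Inhba at 1.92 and 11.6 CPM (-2.60), with 33.3 and 50% of the UMIs at 4 weeks in 1 cell.

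None of 7 genes of MHC class II, the complex that shows antigen to helper T cells, passed 2-fold in members (median 0.32), while 4 of the 7 were higher in Folr2/Cd163-positive macrophages (median 1.03). The difference between the sets was not tested. H2-Aa was at 4558 and 3927 CPM at 4 and 2 weeks in members, against 8248 and 3909 CPM in Folr2/Cd163-positive macrophages. Members thus had about the level of the comparison cells at 2 weeks and less at 4 weeks. Proteases and inhibitors in members were higher for 2 and lower for 3 of 17 (median 0.16), and genes of arginine use and alternative activation for 3 and 2 of 10 (median 0.28). Chil3, a chitinase-like gene of that last list, was at 280 and 10.9 CPM, but 1 cell held 93.8% of the UMIs at 4 weeks, and without the strongest cells its ratio was 0.97.

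**Figure D5:**
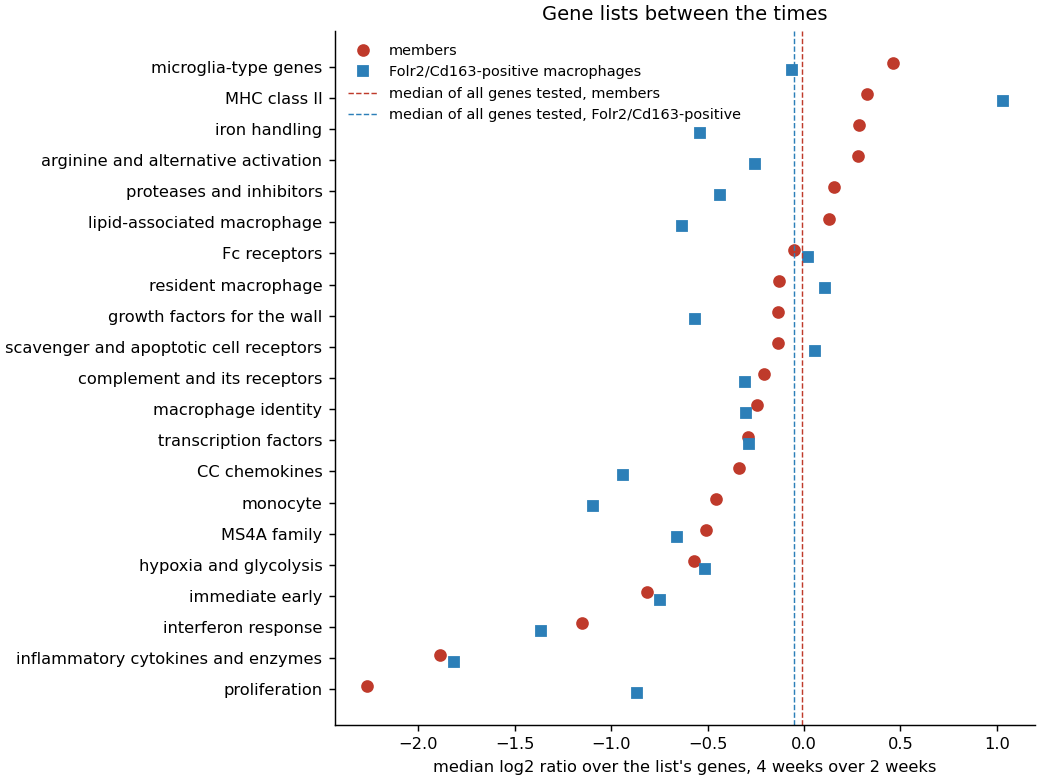
Median log2 ratio of 4 weeks over 2 weeks (horizontal axis) over the genes of 21 lists (rows) with 50 or more UMIs, in members (red circles) and Folr2/Cd163-positive macrophages (blue squares), with dashed lines at the median of all genes of each set. The inflammatory list lies at -1.89 and -1.81, while the lipid-associated list lies at 0.13 in members and -0.63 in Folr2/Cd163-positive macrophages.

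Resident macrophage genes had no common direction between the times in members: 2 of 11 were higher and 1 lower, with a median of -0.13. Lyve1, 1 of the 2, rests on the single cell named above, and without the strongest cells its ratio was -0.35. The other was Igf1. Of the microglia-type genes 1 of 9 was higher, and the median was 0.46. Among 16 transcription factor genes Pparg and Bhlhe41 (25.9 and 7.94 CPM) were higher, and Cebpb (551 and 1195 CPM), which encodes a C/EBP factor, and Hif1a were lower.

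Transcripts of other cell types were present among the members and differed between the libraries. Summed levels at 4 and 2 weeks were 910 and 643 CPM for 9 fibroblast genes, 27.8 and 90.3 CPM for 12 thymocyte genes, 82.4 and 191 CPM for 10 neutrophil genes, 106 and 78.9 CPM for 10 dendritic cell genes, 17.2 and 126 CPM for 7 smooth muscle genes and 36.4 and 811 CPM for 4 parathyroid genes. Endothelial genes were at 14.4 and 44.0 CPM, B cell genes at 54.6 and 27.5, T cell genes at 85.3 and 82.2, NK cell genes at 7.67 and 13, mast cell genes at 0 and 1.94 and osteoclast genes at 261 and 417 CPM. The fibroblast sum was the highest of these at 4 weeks and the parathyroid sum at 2 weeks, where 1 cell held 3400 of its 4187 UMIs. Col3a1, a collagen gene, was in 60.6 and 81.5% of members and in 56.2 and 64.7% of Cd3e-positive cells without C1q, which do not make it. Csf3r, a neutrophil receptor gene also known from monocytes, was in 29.3 and 51.4% of members and in 0.329 and 2.07% of those Cd3e-positive cells. The highest doublet scores fell on 4 of 99 members at 4 weeks and 16 of 362 at 2 weeks. The part of such transcripts and doublets in the differences above was not tested beyond the alternatives of the closing section.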

How the data were processed

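The authors deposited raw UMI counts for each gene and barcode, 1 library per time. Per the file headers these counts came from Cell Ranger 4.0.0, and the submitters' processing notes give mm10 as the build. Per the labels' protocols, papain released the cells and a flow sorter kept single live nucleated ones before 10x Genomics capture. The table lists 27998 genes, 27722 of them matched by identifier to GENCODE M21, which gave the gene positions.

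Members and comparison cells were gated on raw counts, and their UMIs were summed by library. CPM values carry Poisson intervals, log2 ratios conditional binomial intervals and shares Clopper-Pearson intervals, all exact and at 95%. A count of 0 was set to 3 counts, which makes the ratio a bound, apart from the counting error of the other count. A gene was counted as higher or lower at 2-fold among genes with 50 or more UMIs. With 1 library per time no replicate test was made. Reads of near-identical gene copies may have been split or dropped in counting.

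Named genes had 50 or more UMIs, 50 or more CPM in either group compared, a ratio of at least 2-fold with an interval that leaves out 0, and a CPM not under a 10th of that in the highest other class. Mitochondrial, ribosomal protein, haemoglobin, sex-linked, Gm and Rik genes were left out. The 12 highest and 12 lowest of each comparison are named, with up to 6 genes of each list, the marker genes and any member that holds over 20% of a gene's UMIs in a library. Maf, Plac8, Csf3r, Col3a1 and the further genes given for clusters and cell sources were chosen after their values were seen. Values of some list genes are not reported here. Members, 36 gene lists (341 of 343 genes in the table) and tests were chosen with earlier results of these data known.

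Members were clustered with Leiden (resolution 0.5, 20 principal components, 15 neighbours, 2000 variable genes, seed 1). Doublets were kept in the main values, and the highest Scrublet scores (587 barcodes at 4 weeks and 275 at 2 weeks) were removed in an alternative. The thinning depth, 3500 UMIs, is the 10th percentile of members' UMIs, taken down to a multiple of 500. Counting and calling were tested on simulated data. The tools were Python 3.11.15, numpy 2.4.6, pandas 2.3.3, scipy 1.17.1, scanpy 1.11.5, leidenalg 0.10.2, igraph 0.11.9 and matplotlib 3.10.9.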

Additional observations from a re-analysis of the deposited data

Results flagged for a closer look

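The log2 ratio of Slc40a1, the iron exporter gene, had opposite signs in the 2 kinds of macrophage, 3.91 in members (4 weeks over 2 weeks) and -4.80 in Folr2/Cd163-positive macrophages (-10.11 to -2.31), which had 1 UMI at 4 weeks. The difference itself was not tested, since each time is 1 library.

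The medians of 5 gene lists also lay on different sides of 0, again without a test of the difference. The median of lipid-associated genes was 0.13 in members and -0.63 in Folr2/Cd163-positive macrophages. That of iron handling genes was 0.29 and -0.54, that of genes of arginine use and alternative activation 0.28 and -0.25, that of proteases and inhibitors 0.16 and -0.43, and that of resident macrophage genes -0.13 and 0.11. The member medians of 3 of these lists crossed 0 under other settings, and ranged from -0.68 to 0.47 for arginine use and alternative activation, from -0.04 to 0.20 for proteases and inhibitors and from -0.0020 to 0.60 for lipid-associated genes. No median of these lists reached 2-fold in either set.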

How the results depend on the processing

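The member share was lower at 4 weeks by 5.43 percentage points (difference -5.43). It was -3.78 with no Folr2 or Cd163 UMI allowed, -6.81 in cells with 5000 or more UMIs, -8.40 with cells thinned to 5000 UMIs before gating and -3.58 without cycling cells. With no cell that carried a UMI of Rag1, Dntt, Ptcra, Flt3, Csf3r or Col3a1 it was -0.0546, with 34 and 26 members left at 4 and 2 weeks. Those genes were found in 65.7 and 92.8% of members, Col3a1 also in cells that do not make it.

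Genes higher at 4 weeks numbered 131 of 7969 tested, against 35 of 1407 without cells with those genes (1.64 and 2.49%), 232 with the mean of each cell's CPM and 496 of 10964 with a minimum of 10 UMIs (4.52%). Genes lower numbered 425 (5.33%), against 82 (5.83%) and 927 (8.45%) under the first and last of these. Against Folr2/Cd163-positive macrophages, 249 were higher and 257 lower, against 152 and 119 after thinning and 72 and 107 without cells with those genes. Without those cells Ccl24 (-3.03), Ear2 (-0.34), Ly6c2 (0.72), Rsad2 (1.14) and the interferon list (1.19) changed sign, as did Ccl24 (-0.42) after thinning. The proliferation list (0.74) changed sign without cycling cells. Cycling cells were those with 2 or more UMIs of that same list, so this value says nothing about proliferation. Fewer cells and UMIs entered these fits, and other causes were not tested.

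Leaving out the cell with most UMIs of each gene in each library, an alternative chosen after seeing the data, gave 95 genes higher and 594 lower. This step takes a larger part of the 99 members at 4 weeks than of the 362 at 2 weeks, which by itself tends to lower ratios. Of the 24 genes named between the times, 16 stayed past 2-fold in the same direction under every alternative run (Slc40a1 from 2.25 to 4.82, Arg1 from -4.10 to -1.66, Saa3 from -5.71 to -2.65), and Akr1b8, Cat, Ccl24, Ear2, Ly6c2, Mmp13, Retnla and Rsad2 did not. The inflammatory list median ranged from -2.72 to -1.74.

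No paired analysis was possible because each time is 1 library. No fit without a replicate was run for the same reason.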
